A study of Homo sapiens with 24 samples.

Results

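Regulators that govern the choice between epithelial and mesenchymal identity were followed across prostate cancer cells exposed to Acetalax. The 10 genes were chosen by name: the repressors ZEB1, ZEB2, SNAI1 and SNAI2, the TWIST factors TWIST1 and TWIST2, the epithelial transcription factors GRHL1, GRHL2 and OVOL1, and the splicing regulator ESRP1. All 10 were found among the 60660 features of the deposited tables, each under 1 row. The groups were, for each of the human prostate cancer lines LNCaP and PC3, cells labelled as a chronic-exposure (CE) derivative after 10 µM Acetalax for 4 h, the same CE cells untreated (CE control), parental cells after 10 µM Acetalax for 4 h, and untreated parental cells (parental control), with 3 libraries in each of the 8 groups. Acetalax, or oxyphenisatin acetate, was once sold as a laxative, and the series presents the channel TRPM4 as a marker of its activity. CE cells were made from parental cells by passage in rising drug concentrations until they resisted it, and were kept without drug for 2 weeks before RNA was taken. LNCaP was grown in RPMI-1640 and PC3 in F-12, so medium and line cannot be told apart. The labels call the libraries biological triplicates without naming separate cultures, so p-values measure the spread between these libraries, which may be technical.

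Epithelial cells hold on to each other through E-cadherin (CDH1) and tight junctions, and an epithelial-mesenchymal transition replaces this programme with that of migratory cells. ZEB, SNAI and TWIST factors are zinc finger or basic helix-loop-helix proteins that shut down epithelial genes, often through the E-box motif CACCTG. Grainyhead-like factors (GRHL1, GRHL2) and OVOL1 keep epithelial genes on, ESRP1 imposes epithelial splicing, and microRNAs of the miR-200 family repress ZEB1 and ZEB2, which in turn repress them.

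Library totals lay between 40160832 and 57728014 expected counts. The CE libraries went against their labels in several respects. The mean log2 profiles of the CE controls of both lines correlated at 0.947 over 19231 genes, against 0.793 for LNCaP CE with LNCaP parental and 0.761 for PC3 CE with PC3 parental controls, as a description across genes, which are not independent. CTNNA1, which PC3 is known to have lost, held 53037 counts in PC3 CE controls and 32 in PC3 parental controls. The summed level of 7 epithelial markers was 8.68 to 11.0 TPM in LNCaP CE and 1592 to 2010 TPM in LNCaP parental controls, and 25.2 to 28.2 TPM in PC3 CE and 3030 to 3507 TPM in PC3 parental controls. The 8 prostate luminal markers summed to 10.4 to 13.0 TPM in LNCaP CE, against 5122 to 8076 TPM in LNCaP parental controls, and the 9 fibroblast markers to 1075 to 1146 TPM in LNCaP CE and 3150 to 3157 TPM in PC3 CE, against at most 39.5 TPM in parental controls. The fibroblast markers did not all move together. In PC3 CE controls COL1A2 and COL3A1, at 2112 and 849 TPM, made up most of the sum. COL1A1 was lower there than in PC3 parental controls, at 11.2 against 33.4 TPM. FAP, PDGFRA and PDGFRB measured 0.16, 0.327 and 0.887 TPM in PC3 CE controls. The 5 smooth muscle markers summed to 1032 to 1069 TPM in PC3 CE, against 10.2 to 12.4 TPM in PC3 parental controls. Most of that PC3 CE sum came from ACTA2 and TAGLN, at 714 and 312 TPM. In LNCaP CE the smooth muscle sum was 24.4 to 25.9 TPM, against 8.93 to 11.35 TPM in LNCaP parental controls. The 6 endothelial markers stayed at or under 6.78 TPM in all control libraries. Change under exposure and a different origin of the CE cells cannot be told apart here, and the names LNCaP CE and PC3 CE give the labels only. Beyond this, 3 libraries stood apart from their replicates, namely LNCaP parental control 2, LNCaP parental Acetalax 3 and PC3 CE Acetalax 1: the 6 replicate pairs that hold one of them had a chi-square per degree of freedom of 164 to 292, against 3.57 to 34.4 in the other 18 pairs. LNCaP parental control 2 and Acetalax 3 were alike in some marker sums. Their neural sums were 36.7 and 38.6 TPM, against 239 to 319 TPM in the other parental LNCaP libraries. Their luminal sums were 5122 and 4595 TPM, against 6978 to 8076 TPM. What they share was not tested.

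**Figure D1:**
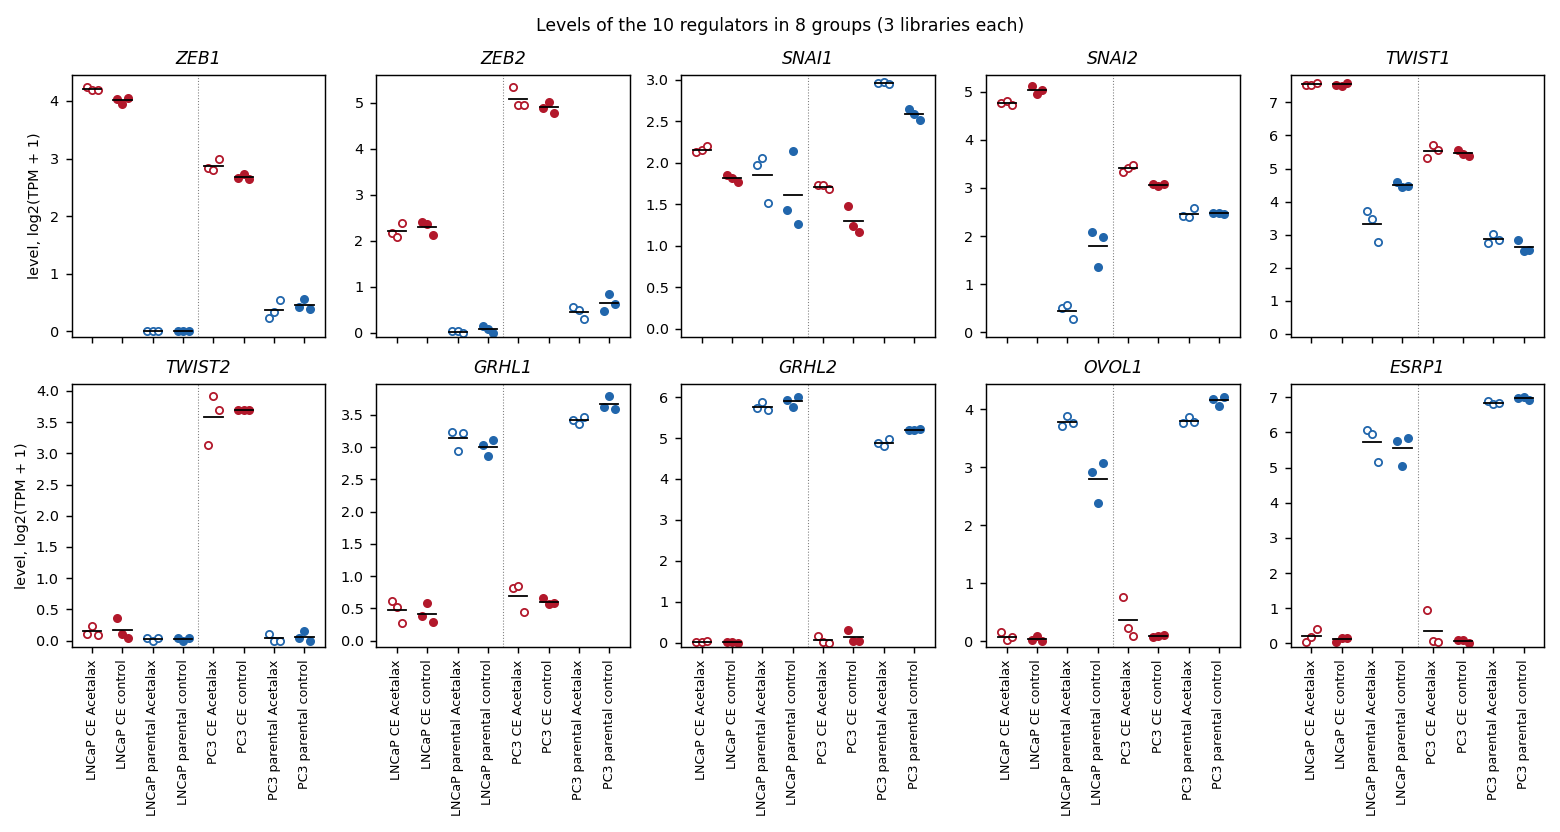
Levels of the 10 regulators, as log2(TPM + 1), in each library of the 8 groups (open circles, Acetalax; filled circles, control; red, CE; blue, parental; bars, group means; each panel has its own axis). ZEB1, ZEB2 and TWIST1 lie higher, and GRHL1, GRHL2, OVOL1 and ESRP1 near 0, in every CE library, while TWIST2 is raised in the PC3 CE libraries.

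In controls, ZEB1, ZEB2, SNAI2 and TWIST1 were higher and the 4 epithelial regulators far lower in CE than in parental cells of both lines. In PC3 CE, 5 members were higher (ZEB1, ZEB2, SNAI2, TWIST1, TWIST2) and 5 lower (SNAI1, GRHL1, GRHL2, OVOL1, ESRP1) than in PC3 parental cells at an adjusted p of 0.05, with all 10 tested. Of all 20049 genes tested in that comparison, 77.5% passed, 38.5% higher and 39% lower, so a call by itself was common. In LNCaP CE, 4 members were higher (ZEB1, ZEB2, SNAI2, TWIST1) and the same number lower (GRHL1, GRHL2, OVOL1, ESRP1) than in LNCaP parental cells. There 9 members were tested, TWIST2 having too few counts, and 75.3% of 19393 genes passed, 36% higher and 39.3% lower. Most genes passed in both lines, so these counts lie near the background. In bulk libraries such as these, fewer cells of a type and less RNA per cell cannot be told apart.

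ZEB1 (chromosome 10, 31318495 to 31529814, plus strand, GRCh38) encodes the repressor best known for silencing CDH1. It measured 15.3, 14.4 and 15.6 TPM in LNCaP CE controls, against 0.01, 0 and 0 TPM in LNCaP parental controls. That was 7442 counts in CE and a single count in parental libraries, a ratio of 7440 with a 95% counting interval of 1335 to 293890 (adjusted p = 2.07e-10). In PC3 the levels were 5.32, 5.67 and 5.22 TPM in CE controls and 0.34, 0.48 and 0.31 TPM in parental controls, a log2 fold change of 4.26 ± 0.18 (SE, n = 3 each, adjusted p = 1.13e-09). Parental PC3 cells therefore held a low but clear ZEB1 signal in every library, whereas parental LNCaP cells were at the floor. Counting intervals here and below cover counting error only.

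ZEB2 (chromosome 2, 144364364 to 144524583, minus strand), a repressor of the same structure, had the opposite order between the CE lines. It measured 28.6, 31.4 and 26.4 TPM in PC3 CE controls and 0.39, 0.8 and 0.54 TPM in PC3 parental controls (log2 fold change 7.26 ± 0.18, adjusted p = 2.35e-11). In LNCaP CE controls it measured 4.28, 4.12 and 3.38 TPM, against 0.1, 0.06 and 0 TPM in LNCaP parental controls (7.89 ± 0.51, adjusted p = 8.95e-08). CE and parental libraries did not overlap in either line for either ZEB gene. How many of all genes were without overlap was not counted, here and below. Between the CE controls, ZEB1 was higher in LNCaP CE than in PC3 CE by 1.62 ± 0.17 on the log2 scale (adjusted p = 1.20e-07), and ZEB2 lower by -3.02 ± 0.20 (adjusted p = 1.61e-10). ZEB1 thus made up most of the ZEB signal in LNCaP CE, at 15.1 ± 0.7 TPM against 3.93 ± 0.48 TPM for ZEB2 (SD, n = 3), and ZEB2 most of it in PC3 CE, at 28.8 ± 2.5 TPM against 5.40 ± 0.24 TPM for ZEB1.

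The miR-200 microRNAs are shown because their seeds set which transcripts they recognise, and both ZEB transcripts carry several matches. The mature forms, from RefSeq on GRCh38.p14 with bases 2 to 8 in capitals, fall into a pair of seed groups that differ in the third seed base.
miR-200b-3p: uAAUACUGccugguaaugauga
miR-200c-3p: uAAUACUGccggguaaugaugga
miR-429: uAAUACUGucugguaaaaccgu
miR-200a-3p: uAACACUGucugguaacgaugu
miR-141-3p: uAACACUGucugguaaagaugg
In the longest annotated 3′ UTR of GENCODE 29, ZEB1 had 6 matches to the first seed (CAGTATT) and 3 to the second (CAGTGTT) in 2549 bases, and ZEB2 had 5 and 4 in 5370 bases. Of 2588 genes with a 3′ UTR between 0.8 and 1.25 times the length of that of ZEB1, 26.4% held any CAGTATT and 29.8% any CAGTGTT, and of 1187 such genes for ZEB2, 46.5% and 52.2% did. Among the other members, SNAI2 and ESRP1 had 1 CAGTATT each, GRHL2 and ESRP1 had 1 CAGTGTT each, and the rest had neither. The first pair of CAGTATT sites in each ZEB transcript reads as follows, with the match in capitals (ZEB1 at chr10:31527618-31527640 and chr10:31527712-31527734, plus strand; ZEB2 at chr2:144389052-144389074 and chr2:144388989-144389011, minus strand).
ZEB1 site a: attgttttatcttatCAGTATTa
ZEB1 site b: atgctaaatccgcttCAGTATTt
ZEB2 site a: cgcactaccatacatCAGTATTt
ZEB2 site b: cgcactacaatgcatCAGTATTa
A match is a description of the sequence, and no mature microRNA was measured here.

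The host transcript of miR-200c and miR-141, MIR200CHG, could be followed in the poly(A) libraries. It held 0 counts in LNCaP CE controls and 368 counts in LNCaP parental controls, at least 123-fold lower in CE (against 3 counts over the group). It held 0 counts in both PC3 CE and PC3 parental controls, and LNCaP parental cells had at least 110-fold more than PC3 parental cells. A link between the levels of MIR200CHG and ZEB1 was not tested. The single miRNA genes of the family were at 0 to 3 counts per group, and precursors without a poly(A) tail are not captured by these libraries.

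SNAI1 (chromosome 20, 49982999 to 49988886, plus strand), the Snail repressor, was the mesenchymal regulator that did not follow the others. In PC3 it measured 1.79, 1.36 and 1.25 TPM in CE controls and 5.28, 4.99 and 4.72 TPM in parental controls (log2 fold change -1.85 ± 0.15, adjusted p = 4.28e-07), lower in all 3 CE libraries. In LNCaP it measured 2.6, 2.53 and 2.42 TPM in CE controls, against 1.69, 3.43 and 1.41 TPM in parental controls, and the comparison did not pass (adjusted p = 0.454). The high parental value was that of control 2, which stood apart, and without the 3 libraries that did so SNAI1 was higher in LNCaP CE by 0.81 (adjusted p = 0.000325). The change with CE differed between lines, by 2.10 ± 0.37 on the log2 scale for LNCaP minus PC3 (adjusted p = 5.09e-05).

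SNAI2 (Slug; chromosome 8, 48917604 to 48921740, minus strand), its paralogue, was higher in CE in both lines but to different degrees. In LNCaP CE controls it measured 33.6, 29.9 and 31.9 TPM, against 3.23, 1.55 and 2.93 TPM in LNCaP parental controls (log2 fold change 3.72 ± 0.28, adjusted p = 3.31e-07). In PC3 it measured 7.44, 7.21 and 7.48 TPM in CE controls and 4.56, 4.61 and 4.47 TPM in parental controls (0.57 ± 0.10, adjusted p = 0.000228). The groups did not overlap in either line, and the difference of the changes, 3.11 ± 0.29 for LNCaP minus PC3, passed (adjusted p = 1.29e-08).

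TWIST1 (chromosome 7, 19020991 to 19117672, minus strand), a basic helix-loop-helix factor of mesoderm, was the most abundant regulator of the set in the CE controls of both lines. It measured 184, 181 and 190 TPM in LNCaP CE controls, against 23.3, 20.8 and 21.1 TPM in LNCaP parental controls (log2 fold change 3.04 ± 0.19, adjusted p = 7.89e-08). In PC3 it measured 45.9, 42.8 and 40.3 TPM in CE controls and 6.22, 4.69 and 4.83 TPM in parental controls (3.04 ± 0.14, adjusted p = 1.73e-09). The distance between the lines was about the same in parental and in CE controls: TWIST1 was higher in LNCaP than in PC3 by 2.19 ± 0.17 in parental controls (adjusted p = 5.33e-10) and by 2.16 ± 0.17 in CE controls (adjusted p = 1.38e-09). The difference of the changes did not pass (adjusted p = 0.972), with a standard error of 0.23, and its sign turned under RLE scaling.

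TWIST2 (chromosome 2, 238848032 to 238910543, plus strand), its close relative, was raised in PC3 CE and close to the floor elsewhere. It measured 11.9 TPM in each of the 3 PC3 CE controls, 0.03, 0.11 and 0 TPM in PC3 parental controls (log2 fold change 7.97 ± 0.56, adjusted p = 8.85e-08), and 1260 counts stood against 4. In LNCaP it had 14 counts in CE and 2 in parental controls, a ratio of 7.00 with a counting interval of 1.61 to 63.4, too few to be tested. Between the CE controls TWIST2 was lower in LNCaP CE than in PC3 CE by -6.32 ± 0.56 on the log2 scale (adjusted p = 1.31e-08).

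GRHL2 (chromosome 8, 101492432 to 101669726, plus strand), which holds epithelial enhancers open, was close to the floor in CE cells. It held 2 counts in LNCaP CE controls and 26932 in LNCaP parental controls, a CE to parental ratio of 7.42e-05 with a counting interval of 8.99e-06 to 0.000268 (adjusted p = 1.94e-11), or 0.02, 0.02 and 0 TPM against 60.2, 53.5 and 63.5 TPM. In PC3 it measured 0.24, 0.03 and 0.03 TPM in CE controls and 35.7, 35.5 and 36.1 TPM in parental controls (log2 fold change -9.09 ± 0.44, adjusted p = 3.37e-09). Most of the PC3 CE signal, 21 of 30 counts, came from control 1. GRHL1 (chromosome 2, 9951693 to 10002277, plus strand), its relative, kept a low level: 0.3, 0.5 and 0.22 TPM in LNCaP CE against 7.18, 6.28 and 7.61 TPM in LNCaP parental controls (-4.88 ± 0.20, adjusted p = 2.06e-09), and 0.58, 0.48 and 0.5 TPM in PC3 CE against 11.3, 12.9 and 11.1 TPM in PC3 parental controls (-4.50 ± 0.14, adjusted p = 8.67e-11).

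OVOL1 (chromosome 11, 65787022 to 65797219, plus strand), a zinc finger repressor of epithelial cells, had 6 counts in LNCaP CE controls against 1587 in LNCaP parental controls (log2 fold change -7.80 ± 0.58, adjusted p = 3.32e-07). In PC3 it measured 0.05, 0.06 and 0.08 TPM in CE controls and 17.1, 15.8 and 17.7 TPM in parental controls (-8.27 ± 0.41, adjusted p = 3.88e-09). ESRP1 (chromosome 8, 94641074 to 94707466, plus strand) measured 0.03, 0.11 and 0.11 TPM in LNCaP CE controls against 52.6, 31.9 and 56.5 TPM in LNCaP parental controls (-9.07 ± 0.39, adjusted p = 3.13e-09). In PC3 it measured 0.06, 0.08 and 0 TPM in CE controls against 124, 129 and 120 TPM in parental controls (-12.08 ± 0.98, adjusted p = 3.31e-07). None of the 4 epithelial regulators had a CE library within its parental range in either line. The share of all genes separated in this way was not counted.

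**Figure D2:**
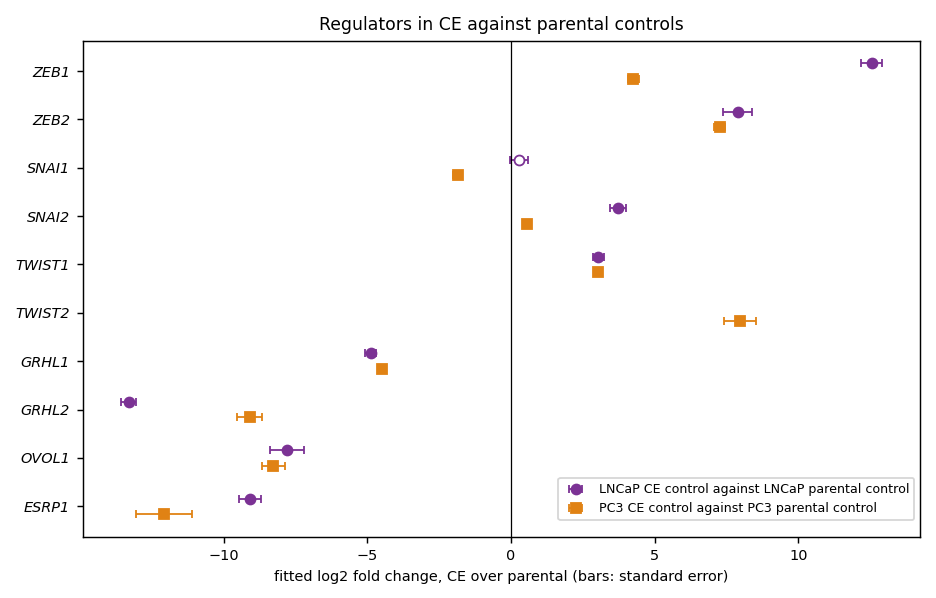
Fitted log2 fold changes of the regulators in CE over parental controls (points; bars, standard errors derived from the F statistic of the test; filled, adjusted p under 0.05; LNCaP circles, PC3 squares; TWIST2 was not tested in LNCaP). ZEB1, ZEB2, SNAI2 and TWIST1 lie to the right of 0 in both lines, GRHL1, GRHL2, OVOL1 and ESRP1 to the left, and SNAI1 lies at -1.85 in PC3 and does not pass in LNCaP; the LNCaP points of ZEB1 and GRHL2 rest on a group with 1 and 2 counts and depend on the fit.

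The parental lines also differed from each other. At the same threshold, 2 members were higher in LNCaP parental than in PC3 parental controls and 7 lower, where 70.3% of 21955 genes passed, 35.5% higher and 34.7% lower. GRHL2 was higher by 0.68 ± 0.24 (log2, adjusted p = 0.0157), and without PC3 parental control 2 by 0.65 (adjusted p = 0.0519); the other member that was higher was TWIST1. OVOL1 and ESRP1 were lower, by -1.49 ± 0.31 (adjusted p = 0.000268) and -1.53 ± 0.46 (adjusted p = 0.00564), as were GRHL1, SNAI1 and SNAI2 by -0.69, -1.19 and -0.84. ZEB2 was lower by -3.62 ± 0.46 (adjusted p = 6.37e-07), and ZEB1 had 1 count in LNCaP against 119 in PC3 parental controls, a ratio of 0.00751 with a counting interval of 0.000189 to 0.0427. Parental PC3 cells thus combined low ZEB1 and ZEB2 with the highest ESRP1 of any group, at 124 ± 4.1 TPM (SD, n = 3).

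Between the CE controls, 4 members were higher in LNCaP CE than in PC3 CE and 4 lower, where 41% of genes passed, 16.7% higher and 24.2% lower. Beside the ZEB, SNAI2 and TWIST genes given above, SNAI1 was higher by 0.91 ± 0.26 (adjusted p = 0.00813), GRHL1 lower by -1.10 ± 0.18 (adjusted p = 3.81e-05), and GRHL2, with 2 counts in LNCaP CE and 30 in PC3 CE, was lower (adjusted p = 0.00441) with a PC3 CE to LNCaP CE ratio of 14.7 and a counting interval of 3.73 to 127. That call was lost without PC3 CE control 1 (adjusted p = 0.0553). In the test of whether the change with CE differed between lines, 5 members passed, where 56.8% of genes did, 25.7% higher and 31.2% lower. ZEB1, SNAI1 and SNAI2 were higher for LNCaP minus PC3, and TWIST2 and GRHL2 lower, GRHL2 by -4.24 ± 0.95 (adjusted p = 0.000712). TWIST2 entered that fit through its PC3 CE counts alone, so its call says nothing of a change in LNCaP.

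Epithelial adhesion genes, among them known targets of GRHL2 or ZEB1, were lower in CE cells of both lines. Among these 30 genes, 29 were lower in CE in each line and 0 higher, with a median log2 change of -8.27 in LNCaP and -7.31 in PC3, against -0.06 and -0.01 over all genes tested. Of all genes, 39.3% were lower and 36% higher in LNCaP CE, and 39% lower and 38.5% higher in PC3 CE. CDH1 itself, E-cadherin, measured 0.157 ± 0.139 TPM in LNCaP CE and 171 ± 32.8 TPM in LNCaP parental controls (log2 fold change -11.05 ± 0.43, adjusted p = 1.43e-09), and 0.423 ± 0.306 TPM in PC3 CE and 159 ± 7.2 TPM in PC3 parental controls (-9.63 ± 0.48, adjusted p = 4.58e-09; SD, n = 3 each). EPCAM, an adhesion molecule, was lower by -7.39 in LNCaP and -7.49 in PC3. In PC3 the gene that did not pass was JUP, plakoglobin (adjusted p = 0.108). In LNCaP, RAB25, a trafficking GTPase, measured 0.103 ± 0.179 TPM in CE and 119 ± 14.6 TPM in parental controls (-10.91 ± 0.44), and CLDN3, a tight junction claudin, 0.06 ± 0.08 TPM in CE and 128 ± 24.3 TPM in parental controls (-10.91 ± 0.57). The list holds all 7 genes of the epithelial marker sum given above.

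Because ZEB and SNAI proteins bind the E-box, the 250 bases before the transcription start of each gene were searched for CACCTG or its reverse complement CAGGTG (both strands, RefSeq, GRCh38.p14). Of 27305 genes, 20.6% held a match in any of their windows. Of the 30 epithelial genes, 16 had a window in the table and 11 of these held a match, against 0 of the 12 mesenchymal genes and 1 of the 4 regulators (ZEB1) with a window. The search was chosen after the values were known, and no test was made. The epithelial list includes known ZEB1 targets, so its number of matches is partly set by how the list was made. The windows shown are those of CRB3, a cell polarity gene with 5 matches, of the miR-200c host, of the trafficking gene RAB25 and of the most upstream start of ZEB1, with matches in capitals (CRB3 at chr19:6464021-6464270, MIR200CHG at chr12:6962995-6963244, RAB25 at chr1:156060910-156061159, ZEB1 at chr10:31318167-31318416, all plus strand).
CRB3: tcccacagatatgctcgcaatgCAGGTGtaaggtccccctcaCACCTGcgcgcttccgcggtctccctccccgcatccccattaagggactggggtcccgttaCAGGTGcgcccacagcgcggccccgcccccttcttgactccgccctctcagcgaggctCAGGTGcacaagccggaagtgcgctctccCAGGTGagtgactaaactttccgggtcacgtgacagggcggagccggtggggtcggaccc
MIR200CHG: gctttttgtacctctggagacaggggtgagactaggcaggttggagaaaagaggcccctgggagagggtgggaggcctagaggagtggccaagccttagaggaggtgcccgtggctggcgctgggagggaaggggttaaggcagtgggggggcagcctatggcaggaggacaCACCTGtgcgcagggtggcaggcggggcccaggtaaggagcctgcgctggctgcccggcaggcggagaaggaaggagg
RAB25: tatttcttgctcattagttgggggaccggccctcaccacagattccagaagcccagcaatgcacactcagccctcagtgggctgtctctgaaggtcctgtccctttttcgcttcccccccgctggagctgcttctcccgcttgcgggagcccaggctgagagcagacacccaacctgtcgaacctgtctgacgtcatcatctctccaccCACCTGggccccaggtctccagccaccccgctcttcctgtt
ZEB1: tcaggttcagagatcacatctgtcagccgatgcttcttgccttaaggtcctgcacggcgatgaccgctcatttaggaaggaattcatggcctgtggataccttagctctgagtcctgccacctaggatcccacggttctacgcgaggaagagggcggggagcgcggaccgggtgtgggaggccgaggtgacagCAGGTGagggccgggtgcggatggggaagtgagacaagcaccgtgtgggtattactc
The matches in CRB3 began 228, 208, 147, 89 and 60 bases before the start, that in MIR200CHG 78, that in RAB25 41 and that in ZEB1 57 bases before it. A match is a description of the sequence, not a bound site.

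Of 18 other epithelial transcription factors, 12 were lower and 2 higher of 16 tested in LNCaP CE, and 15 lower and 2 higher of 17 tested in PC3 CE. Over all genes, 39.3% were lower and 36% higher in LNCaP CE, and 39% and 38.5% in PC3 CE. OVOL2, the close relative of OVOL1, had 0 counts in LNCaP CE against 1198 in LNCaP parental controls, at least 399-fold lower. EHF and SPDEF, ETS factors of glandular epithelium, measured 0.08 ± 0.09 and 0.0233 ± 0.0404 TPM in LNCaP CE and 173 ± 9.3 and 131 ± 25 TPM in LNCaP parental controls (-12.88 ± 0.45 and -12.17 ± 0.50). In PC3 CE, ELF3 measured 1.21 ± 0.20 TPM, against 249 ± 18.5 TPM in PC3 parental controls (-8.16 ± 0.58). TFAP2A and TP63 were the pair that was higher in both lines. TP63 stayed near the floor, at 0.263 ± 0.015 TPM in LNCaP CE against 0 TPM in LNCaP parental controls. In PC3 it measured 0.24 ± 0.10 TPM in CE and 0.08 ± 0.03 TPM in parental controls. TFAP2A, which is also a neural crest factor, measured 54.2 ± 1.4 TPM in LNCaP CE against 9.27 ± 2.38 TPM in LNCaP parental controls (2.79 ± 0.16), and 221 ± 2.1 TPM in PC3 CE against 44.0 ± 4.0 TPM in PC3 parental controls (2.49 ± 0.12).

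Mesenchymal genes moved in both directions. Of 25, 16 were higher and 4 lower of 23 tested in LNCaP CE (median log2 change 6.32, or 4.40 with the gene that has a group at 0 counts set to its bound), and 14 higher and 10 lower of 24 tested in PC3 CE (median 3.14). Over all genes, 36% were higher and 39.3% lower in LNCaP CE, and 38.5% and 39% in PC3 CE. VIM, the intermediate filament vimentin, measured 4128 ± 139 TPM in LNCaP CE and 6.02 ± 3.43 TPM in LNCaP parental controls (9.56 ± 0.63), and 1972 ± 27.5 TPM in PC3 CE and 27.2 ± 2.0 TPM in PC3 parental controls (6.09 ± 0.19). CDH2, N-cadherin, went in opposite directions: it was higher in LNCaP CE by 10.92 ± 0.22 and lower in PC3 CE by -1.46 ± 0.08. FN1, fibronectin, was lower in both, at 2.77 ± 1.40 TPM in LNCaP CE against 308 ± 137 TPM in LNCaP parental controls and at 2.62 ± 0.60 TPM in PC3 CE against 146 ± 12.6 TPM in PC3 parental controls. The paired chains of type I collagen split in PC3: COL1A2 measured 2112 ± 6.0 TPM in CE and 0.18 ± 0.13 TPM in parental controls, whereas COL1A1 was lower in CE by -1.41 ± 0.17, at 11.2 ± 0.9 TPM in CE and 33.4 ± 4.3 TPM in parental controls. In LNCaP CE the largest changes were in POSTN and DCN, matrix genes of fibroblasts, at 411 ± 17.2 and 159 ± 6.4 TPM against 0.0333 ± 0.0208 and 0.0667 ± 0.0451 TPM in LNCaP parental controls. The fibroblast marker sums given above moved with the mesenchymal list, which shares 7 genes with them, and their part in its change was not tested.

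Among 20 other transcription factors linked to this transition, 8 were higher and 7 lower in CE in each line, of 17 tested in LNCaP and 16 in PC3. These counts lay near the background, with 36% of all genes higher and 39.3% lower in LNCaP CE, and 38.5% and 39% in PC3 CE. TBX2, a T-box factor, measured 290 ± 12.7 TPM in LNCaP CE against 0.16 ± 0.04 TPM in LNCaP parental controls, and 140 ± 1.4 TPM in PC3 CE against 0.803 ± 0.156 TPM in PC3 parental controls, while its paralogue TBX3 was lower in both (-8.66 ± 0.27 in LNCaP and -6.68 ± 0.59 in PC3). TCF4, a partner of TWIST factors, was higher by 8.24 ± 0.21 in LNCaP CE and 7.04 ± 0.17 in PC3 CE. HMGA2, a chromatin protein of embryonic cells, measured 509 ± 25.3 TPM in LNCaP CE and 0.177 ± 0.061 TPM in LNCaP parental controls. PRRX1 had 420 counts in LNCaP CE against 1 in LNCaP parental controls, and 139 in PC3 CE against 0 in PC3 parental controls, at least 40.5-fold higher.

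Of 11 splicing factors with epithelial or mesenchymal roles, 8 were higher and 3 lower in LNCaP CE, and 6 higher and 3 lower of 10 tested in PC3 CE. The 3 lower ones were ESRP2, RBM47 and MBNL2 in both lines. Over all genes, 36% were higher and 39.3% lower in LNCaP CE, and 38.5% and 39% in PC3 CE. ESRP2, the partner of ESRP1, measured 0.217 ± 0.245 TPM in LNCaP CE against 66.2 ± 12.1 TPM in LNCaP parental controls (-9.88 ± 0.40), and 0.177 ± 0.165 TPM in PC3 CE against 31.7 ± 1.6 TPM in PC3 parental controls (-7.79 ± 0.40). RBFOX2, a mesenchymal splicing factor, was higher by 1.75 ± 0.20 in LNCaP and 1.62 ± 0.09 in PC3. Of 22 genes of the TGF-beta pathway and of corepressors, 18 were higher and 1 lower in LNCaP CE, and 16 higher and 4 lower in PC3 CE. The shares over all genes are those given for the splicing factors. The ligand TGFB2 and the receptor TGFBR2 split the lines: TGFB2 measured 1.59 ± 0.66 TPM in LNCaP CE against 0.0433 ± 0.0252 TPM in LNCaP parental controls, but 5.29 ± 0.22 TPM in PC3 CE against 147 ± 11.1 TPM in PC3 parental controls, and TGFBR2 was lower in PC3 CE by -4.73 ± 0.14.

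**Figure D3:**
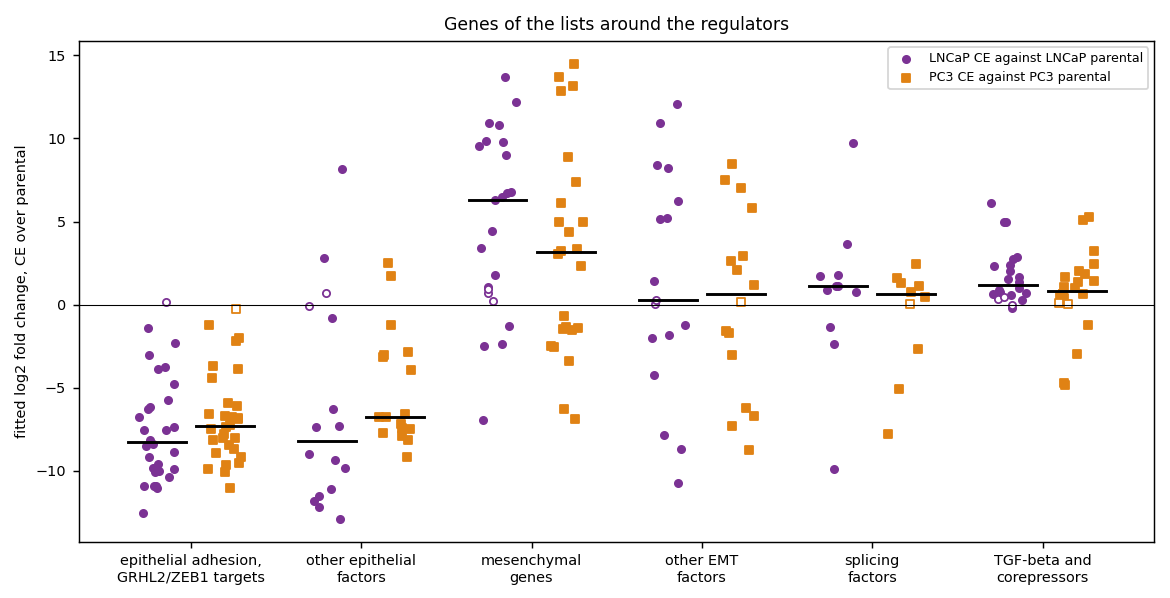
Fitted log2 fold changes in CE over parental controls for every tested gene of 6 lists (LNCaP circles, PC3 squares; filled, adjusted p under 0.05; bars, list medians). The epithelial adhesion genes lie almost entirely under 0 in both lines, with medians of -8.27 and -7.31, whereas the mesenchymal genes spread to both sides.

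After 4 h of Acetalax, few regulators changed. In parental LNCaP cells 2 members were lower and 0 higher of 9 tested, where 8.46% of genes passed, 4.04% higher and 4.42% lower. SNAI2 measured 0.42, 0.48 and 0.22 TPM with Acetalax and 3.23, 1.55 and 2.93 TPM in controls (log2 fold change -2.84 ± 0.32, adjusted p = 0.000427), without overlap. TWIST1 measured 12.1, 10.0 and 5.86 TPM with Acetalax and 23.3, 20.8 and 21.1 TPM in controls (-1.15 ± 0.18, adjusted p = 0.00316), also without overlap. OVOL1 pointed the other way, at 12.1, 13.9 and 12.6 TPM with Acetalax against 6.56, 4.23 and 7.47 TPM in controls, and did not pass (adjusted p = 0.0627). Without the libraries that stood apart, 5 members passed, among them OVOL1 (0.98, adjusted p = 0.000857), SNAI1 (1.06, adjusted p = 0.000342) and ESRP1 (0.36, adjusted p = 0.00170), and with the spread estimated from these 6 libraries alone 0 did (SNAI2 adjusted p = 0.0637, TWIST1 adjusted p = 0.109).

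In parental PC3 cells 0 of 10 members passed, where 7.81% of genes did, 3.49% higher and 4.32% lower. At an unadjusted p under 0.05 there was 1, SNAI1, which measured 6.76, 6.85 and 6.69 TPM with Acetalax and 5.28, 4.99 and 4.72 TPM in controls, without overlap (adjusted p = 0.0859). DESeq2 called SNAI1 alone (adjusted p = 0.00396), and 3 members passed when the spread was estimated from the 6 libraries compared: SNAI1 (0.46, adjusted p = 0.00732), GRHL2 (-0.27, adjusted p = 0.0169) and OVOL1 (-0.28, adjusted p = 0.0209). SNAI2 in these cells measured 4.36, 4.25 and 4.96 TPM with Acetalax and 4.56, 4.61 and 4.47 TPM in controls. The response of SNAI2 therefore differed between the parental lines, by -2.85 ± 0.33 on the log2 scale for LNCaP minus PC3 (adjusted p = 2.53e-05), as did that of TWIST1, by -1.37 ± 0.24 (adjusted p = 0.00130), where 5.05% of genes passed, 3.15% higher and 1.9% lower. This comparison was added after the data had been seen.

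In PC3 CE cells 3 members were higher with Acetalax and 0 lower, where 8.14% of genes passed, 4.67% higher and 3.47% lower. SNAI1 measured 2.31, 2.32 and 2.21 TPM with Acetalax and 1.79, 1.36 and 1.25 TPM in controls (0.71 ± 0.15, adjusted p = 0.0188). SNAI2 measured 9.04, 9.65 and 10.1 TPM with Acetalax and 7.44, 7.21 and 7.48 TPM in controls (0.46 ± 0.10, adjusted p = 0.0178). Both were higher in all 3 treated libraries, without overlap, but the calls were narrow: without any 1 control library SNAI2 had an adjusted p of 0.0663 to 0.0851, and SNAI1 one of 0.0843 without control 2 and 0.0896 without control 3. OVOL1 had 32, 16 and 7 counts with Acetalax and 4, 5 and 5 counts in controls (1.90 ± 0.52, adjusted p = 0.0461), a call lost in 5 of 6 fits with 1 library left out (adjusted p up to 0.15), and without PC3 CE Acetalax 1 it was 1.18 (adjusted p = 0.0955). That library also held 83 ESRP1 counts against 3 and 2 in its replicates, an epithelial marker sum of 31.9 TPM against 23.9 and 24.2 TPM, and a neural marker sum of 451 TPM against 141 and 129 TPM, whose part in the OVOL1 value was not tested.

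In LNCaP CE cells 0 of 9 members passed, where 7.4% of genes did, 3.34% higher and 4.06% lower, with GRHL2, at 10 counts with Acetalax against 2 in controls, under an unadjusted p of 0.05. DESeq2 called 1, ZEB1 (0.26, adjusted p = 0.000218), which measured 18.0, 17.2 and 17.1 TPM with Acetalax and 15.3, 14.4 and 15.6 TPM in controls. With the spread taken from these 6 libraries alone, ZEB1, SNAI1, SNAI2 and TWIST1 passed, SNAI1 by 0.59 (adjusted p = 0.000691), at 3.36, 3.44 and 3.6 TPM with Acetalax and 2.6, 2.53 and 2.42 TPM in controls. SNAI1 was thus higher in every treated library than in every control library in LNCaP CE, PC3 CE and parental PC3, while in parental LNCaP the groups overlapped through control 2, which stood apart. In the test on the 12 libraries of each line, SNAI1 passed in PC3 CE alone. The share of all genes without such overlap was not counted. SNAI2 went the other way in LNCaP CE, by -0.15 in the fit on its 6 libraries alone (adjusted p = 0.0138), at 26.1, 26.9 and 25.3 TPM with Acetalax and 33.6, 29.9 and 31.9 TPM in controls, without overlap.

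**Figure D4:**
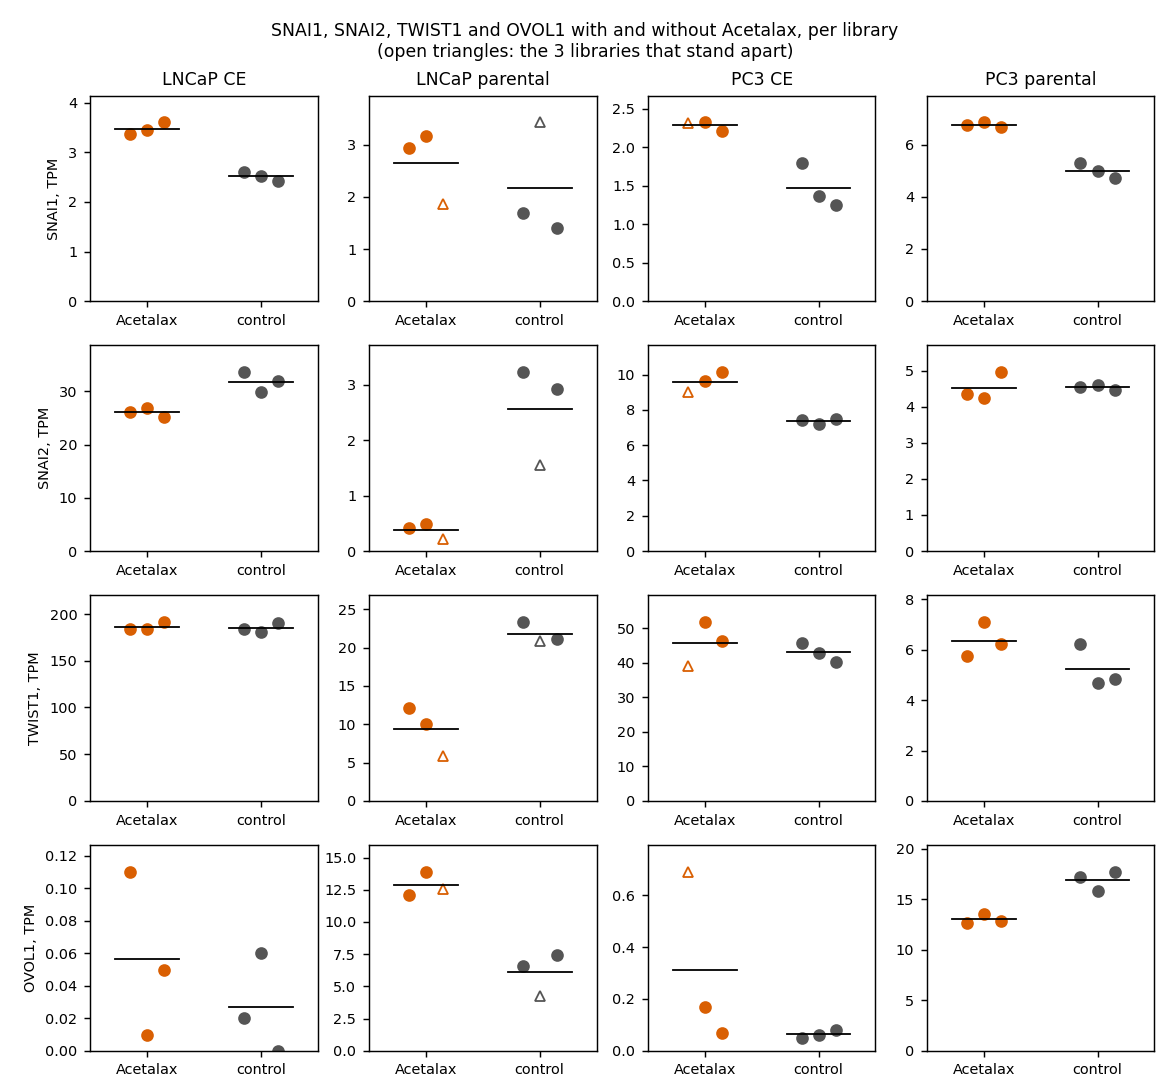
TPM of SNAI1, SNAI2, TWIST1 and OVOL1 in each library with Acetalax and in controls, for the 4 kinds of cells (bars, group means; open triangles, the 3 libraries that stood apart; each panel has its own axis from 0). SNAI2 and TWIST1 are lower with Acetalax in parental LNCaP cells, where SNAI2 falls to 0.22 to 0.48 TPM, and SNAI1 is higher without overlap in the other 3 kinds of cells. In the test on the 12 libraries of each line, SNAI1 passed in PC3 CE alone.

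The differences between CE and parental responses were tested directly. In LNCaP, the response of SNAI2 was higher in CE than in parental cells by 2.70 ± 0.41 on the log2 scale (adjusted p = 0.0120) and that of TWIST1 by 1.27 ± 0.25 (adjusted p = 0.0405), 2 members of 9 where 1.28% of genes passed, 0.583% higher and 0.701% lower. The TWIST1 value lost its call in 9 of 12 fits with 1 library left out (adjusted p up to 0.126). In PC3, the response of OVOL1 was higher in CE by 2.18 ± 0.58 (adjusted p = 0.0412), 1 member of 10 where 8.04% of genes passed, 4.6% higher and 3.44% lower. It rested on the low OVOL1 counts of the PC3 CE libraries and lost its call in 10 of 12 fits with 1 library left out (adjusted p up to 0.117). Between the CE lines no response differed at the threshold (0 of 10 members, where 0.0774% of genes passed, 0.0319% higher and 0.0455% lower), with GRHL2 under an unadjusted p of 0.05 and 0 members by DESeq2. This comparison, too, was added after the data had been seen.

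The genes whose pattern over the 24 libraries lay closest to each regulator, by Euclidean distance between centred log2(TPM + 1) values, were found among 21954 tested genes. For GRHL2 they included ESRP2, at a distance of 1.11 where the spread of GRHL2 itself was 13.3. For ESRP1 they were LAMA3, a laminin of epithelial basement membranes, at 1.29, TMEM45B at 1.40 and PTPRM at 2.18 (spread 15.1). For OVOL1 the nearest was DUSP10 at 1.28 (spread 8.79), for ZEB2 CNN1, the smooth muscle protein calponin, at 1.05 (spread 9.48), and for TWIST1 NOVA1 at 2.05 (spread 8.97). SNAI1 had a spread of 2.62, the smallest of the set, and its nearest gene lay at 1.00. The distances are a description, since all 24 libraries share the large split between CE and parental cells.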

How the data were processed

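RNA of 24 samples was poly(A) enriched and sequenced as directional paired-end libraries, per the labels' protocols. The submitters' processing notes name FastQC, STAR 2.7, RSEM and GRCh38; no annotation release or strand setting was found in the sources used here. The authors deposited RSEM expected counts and TPM per gene, with 1 column per library; 1 further column in each table (2 in all) maps to no sample and was not used. Of the deposited expected counts 10.2% were not whole, and rounding them moved a library total by at most 0.000125%. The deposited TPM values were scaled for gene length and depth by the authors and were used for levels.

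Genes kept by filterByExpr (minimum count 10) were tested with edgeR 4.0.16 in R 4.3.3 by the quasi-likelihood test with TMM scaling, on the 12 libraries of each line (20049 genes in PC3, 19393 in LNCaP) or on all 24 (21955 genes) between lines. P-values were adjusted over all genes tested by the Benjamini-Hochberg method, and adjusted p means this test at a threshold of 0.05 unless another tool is named. The tests were tried on simulated data first. Alternatives were RLE scaling, no low-count filter, DESeq2 1.42.0, limma 3.58.1 on log2(TPM + 1) or log2(TPM + 0.1), the replicate number as a block, fits without the 3 libraries that stood apart, fits on the compared libraries alone, and leaving out each library. Replicate numbers do not pair the libraries. Ratios of small counts carry exact 95% intervals, and a group at 0 was set to 3 counts over the group.

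The members and gene lists were chosen with earlier results of these data known. Genes named from a list are the up to 4 past the threshold with the largest change in each direction in the CE comparisons, and up to 2 with Acetalax; CDH2 in PC3, VIM, EPCAM, COL1A1 and JUP were named after their values were seen. Some genes that this rule names are not reported here. Positions are those of GENCODE 29, which held 58385 of the 60660 feature IDs. Promoter and microRNA sequences are from RefSeq (GRCh38.p14), where 4 of the 10 members had a window.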

Additional observations from a re-analysis of the deposited data

Results flagged for a closer look

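Each result here is a difference between the effects of the same contrast in 2 kinds of cells, tested as a difference with edgeR's quasi-likelihood test. Between CE and parental cells, the Acetalax response differed for SNAI2 in LNCaP by 2.70 ± 0.41 on the log2 scale, for TWIST1 in LNCaP by 1.27 ± 0.25 and for OVOL1 in PC3 by 2.18 ± 0.58. With 1 library left out, the TWIST1 call was lost in 9 of 12 fits and the OVOL1 call in 10 of 12. SNAI2 and TWIST1 were lower with Acetalax in all 3 parental LNCaP libraries than in any of their controls. The OVOL1 difference rests on 55 counts with Acetalax and 14 in controls of PC3 CE.

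The change with CE was compared between LNCaP and PC3, and 5 regulators passed. It was higher in LNCaP for ZEB1 by 8.26 ± 0.49, a fitted value that rests on 1 count in LNCaP parental controls, for SNAI2 by 3.11 ± 0.29 and for SNAI1 by 2.10 ± 0.37. It was lower in LNCaP for GRHL2 by -4.24 ± 0.95, with 2 counts in LNCaP CE controls. The fitted difference for TWIST2 was -5.23 ± 2.05, but with 14 counts in LNCaP CE and 2 in LNCaP parental controls the gene was tested through its PC3 CE counts alone, and the call was lost in 4 of 12 fits with 1 library left out (adjusted p up to 0.161). Between the parental lines, the Acetalax response was lower in LNCaP than in PC3 for SNAI2 by -2.85 ± 0.33 and for TWIST1 by -1.37 ± 0.24.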

How the results depend on the processing

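No called member value changed sign under any alternative: 696 of the values recomputed for called members stayed past the threshold and 57 did not. Among members that did not pass, 39 values passed and 66 turned sign under alternatives other than leaving out 1 library. CE counts stayed within 1.5 times, except that limma on log2(TPM + 1) called 9 members in the difference of CE changes against 5. The numbers of members called moved as follows. For Acetalax in PC3 CE (3 called) there was 1 with no filter and with either limma fit, and 0 with only the compared libraries. In PC3 parental cells (0) there was 1 by DESeq2, 2 without the 3 libraries that stood apart and 3 with only the compared ones. In LNCaP CE (0) there was 1 by DESeq2, 2 without those 3 and 4 with only the compared ones. In LNCaP parental cells (2) there were 5 without those 3 and 0 with only the compared ones. The response difference in PC3 (1) gave 2 by DESeq2, 0 by either limma fit and 3 without those 3 libraries, and that in LNCaP (2) gave 1 by limma on log2(TPM + 0.1). Between lines, the parental response (2) gave 5 and the CE response (0) gave 2 without those 3, and 1 with only the compared libraries for the CE response.

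The numbers of all genes called moved more. Without the 3 libraries they were 5590 for Acetalax in PC3 parental (1565), 3359 in PC3 CE (1632), 5279 in LNCaP parental (1640), 6760 in LNCaP CE (1435), 4594 and 3838 for the response differences in PC3 (1612) and LNCaP (249), and 4327 and 778 for the parental (1108) and CE (17) responses between lines. With only the compared libraries they were 4761, 224, 154 and 7883 for the first 4 of these and 701 and 44 for the last pair. DESeq2 gave 2701, 3075, 2778, 2875, 2779, 1076, 1816 and 189 in the same order. With no filter they were 1041 in PC3 parental, 892 in LNCaP CE, 133 for the LNCaP response difference and 707 for the parental response between lines. Limma on log2(TPM + 0.1) gave 1031 in PC3 parental and 976 for the PC3 response difference, and on log2(TPM + 1) gave 481 for the LNCaP response difference and 69 for the CE response between lines. The response differences within a line use all 12 of its libraries, so a fit on the compared libraries alone gives no other value. The cause of these shifts was not tested.

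Same-numbered libraries did not deviate together (1 of 36 correlations over 0.1, range -0.587 to 0.412), so the numbers do not pair them. Both ends of that range came from parental LNCaP controls against parental LNCaP Acetalax libraries, where control 2 and Acetalax 3 stood apart. With the replicate block, 993 genes were called in PC3 CE, 870 in LNCaP CE, 1007 and 55 for the response differences in PC3 and LNCaP, and 9 for the CE response between lines. The block left 0 members in both response differences (OVOL1 2.16, adjusted p = 0.0746; SNAI2 2.70, adjusted p = 0.0513; TWIST1 1.29, adjusted p = 0.0777) and ended the OVOL1 call in PC3 CE (1.88, adjusted p = 0.0815).

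Leaving out 1 library gave 573 to 1141 genes in PC3 parental, 503 to 3359 in PC3 CE, 967 to 2615 in LNCaP parental, 541 to 610 in LNCaP CE, 758 to 4594 and 79 to 812 for the response differences in PC3 and LNCaP, 691 to 1435 and 2 to 39 for the parental and CE responses between lines, 14869 to 15194 and 13871 to 15358 for CE in PC3 and LNCaP, 14669 to 15211 and 7658 to 7805 between the parental and between the CE lines, and 11857 to 12556 for the difference of CE changes. Members called ranged from 0 to 4 in PC3 CE, 2 to 3 in LNCaP parental and 0 to 3 and 1 to 2 for the response differences in PC3 and LNCaP. Members with at most 30 counts in a control group (ZEB1 and ZEB2 in LNCaP parental cells, TWIST2 in LNCaP and in PC3 parental cells, and GRHL2, OVOL1 and ESRP1 in CE cells) are limited by depth.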

Other observations

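A few listed genes passed the test with Acetalax in both CE lines, in the same direction. SMAD7, the feedback inhibitor of TGF-beta signalling, measured 15.6 ± 0.8 TPM with Acetalax and 9.09 ± 0.91 TPM in controls of LNCaP CE (log2 fold change 0.99 ± 0.19, adjusted p = 0.0111), and 21.9 ± 4.3 TPM with Acetalax and 11.4 ± 0.9 TPM in controls of PC3 CE (1.14 ± 0.14, adjusted p = 0.00114). SKIL, a SMAD corepressor, was higher by 0.66 ± 0.17 in LNCaP CE (adjusted p = 0.0411) and 1.13 ± 0.27 in PC3 CE (adjusted p = 0.0293), and CTSK, the protease cathepsin K, by 2.31 ± 0.46 (adjusted p = 0.0129) and 2.10 ± 0.14 (adjusted p = 5.62e-05). CGN, the tight junction protein cingulin, was lower by -0.64 ± 0.11 in LNCaP CE (adjusted p = 0.00561) and -0.57 ± 0.08 in PC3 CE (adjusted p = 0.00192). CLDN4, the tight junction protein claudin, went the other way in LNCaP CE, at 1.04 ± 0.08 TPM with Acetalax and 0.283 ± 0.0586 TPM in controls (2.11 ± 0.21, adjusted p = 0.000504), and did not pass in PC3 CE (-0.31 ± 0.20, adjusted p = 0.320); the responses of the CE lines differed by 2.46 ± 0.30 for LNCaP minus PC3 (adjusted p = 0.00120).

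In parental cells other genes passed. ELF3, an epithelial ETS factor, measured 191 ± 36.2 TPM with Acetalax and 55.0 ± 24.5 TPM in controls of LNCaP (1.5 ± 0.27, adjusted p = 0.00588), while FOXA1, the luminal pioneer factor, was lower by -0.87 ± 0.09 (adjusted p = 0.000208). ID1, a BMP target, measured 73.7 ± 6.1 TPM with Acetalax and 229.7 ± 24.4 TPM in controls of PC3 (-1.67 ± 0.12, adjusted p = 8.57e-05). Values after ± are SDs over 3 libraries for TPM and, for log2 fold changes, standard errors derived from the F statistic of the test.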
